A study of Caenorhabditis elegans with 23 samples.

Results

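Transcript levels were compared between Caenorhabditis elegans worms that lack the histone methyltransferases MET-2 and SET-25 and worms that have them, in lines whose mutated hrde-1 gene had been repaired. The 9 libraries labelled hrde-1(+R) of generations F3 to F8 were taken, of 23 samples in the series. With met-2(n4256) and set-25(n5021), hereafter met-2 set-25, stand 3 of them: set-32(+) worms at F3 and at F5, and set-32(red11) worms at F5. Wild type for both genes are 6: set-32(+) worms at F4 and F5, set-32(ok1457) worms at F5 and F8, and set-32(red11) worms at F4 and F5. Each line of both kinds carried an hrde-1 mutation before its repair. For comparison, 10 libraries with no repair were used, never mutated at hrde-1 or hrde-1(tm1200), of which 4 are met-2 set-25 and 6 wild type for both. Each combination of genotype and generation has 1 library of young adult hermaphrodites, from total RNA freed of ribosomal RNA with RNase H and not selected for poly(A). Strains of different set-32 state and generations of a strain therefore stood in for replicates. Whether they came from separate cultures is not in the labels, and the p-values measure only how far these libraries spread.

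HRDE-1, an Argonaute protein of the germline nucleus, binds small interfering RNAs and silences matching genes, and the silent state can pass to progeny that never met the trigger. MET-2 adds the first methyl groups to lysine 9 of histone H3, a mark of heterochromatin, and SET-25 completes the trimethylated form. SET-32 is another SET-domain protein, linked to this mark at nuclear RNAi targets. The design asks how transcript levels, among them those of HRDE-1 targets, differ with loss of MET-2 and SET-25 once HRDE-1 is back, and whether this depends on set-32.

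The authors' values are RPKM, reads scaled to the size of the library, in windows of 1 kb. A window was called when its Benjamini-Hochberg adjusted p in limma was under 0.05 and its change was at least 1 in either direction, and windows were tested where the mean of 19 libraries reached 1 RPKM, which left 41323. Changes are differences of mean log2(RPKM + 1), met-2 set-25 minus wild type for both, a scale that understates the change of low windows. Read numbers recovered from the values ran from 840212 to 1097252 in the 3 met-2 set-25 libraries, and from 495050 to 1152738 in the 6 wild type for both. The lowest 2 of all 9 were the set-32(+) libraries wild type for both, with 495050 and 603790 reads. At these depths 1 read was worth 0.911 to 1.19 RPKM in met-2 set-25 libraries and 0.868 to 2.02 RPKM in those wild type for both. The hrde-1 window III 4175001 to 4176000 stood between 179.3 and 243.99 RPKM in the repaired met-2 set-25 libraries and between 149.48 and 280.02 RPKM in the 6 other repaired ones, all above the 58.29 to 87.62 RPKM of the 5 tm1200 libraries.

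The mutated loci followed the labels. At set-25, the window III 13288001 to 13289000 had 0 RPKM in each met-2 set-25 library, against a lowest value of 22.22, a median of 34.0 and a highest value of 44.72 RPKM in the 6 wild type for both. Its change was -5.08 (SE 0.36, limma adjusted p = 3.61e-07). No other set-25 window was called, and III 13292001 to 13293000 held 30.94, 28.25 and 28.5 RPKM in the mutants, against 28.28 to 44.72 RPKM in the others. At met-2, 4 windows between III 8375001 and 8380000 were called. The top one, III 8376001 to 8377000, had 3.57 and 4.56 RPKM in the set-32(+) mutants and 2.37 RPKM in the set-32(red11) mutant, against 29.81 to 50.31 RPKM in the 6 others (change -3.19, SE 0.30, adjusted p = 1.89e-05). The mutants lay far below the others, yet none was at 0, whereas each of the 4 mutants with no repair was. That difference of effects was 2.25 (limma unadjusted p = 2.57e-05, adjusted p = 0.266) and did not pass.

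Over the 9 repaired libraries, with set-32 as covariate, 11 of 41323 windows were called (0.0266%). Only 2 were higher in met-2 set-25 worms (0.00484%), at C55C3.3 and dod-23. The 9 lower ones (0.0218%) fell into 5 regions, at K07C10.3 and K07C10.8, set-25, ttr-6, met-2 and semo-1. At an unadjusted p under 0.05 stood 2542 windows. The 3 libraries did not overlap the 6 at 2.46% of all windows tested.

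K07C10.3 and K07C10.8 are annotated as noncoding RNA genes on nearly the same stretch, II 11166676 to 11167706 in WBcel235. Their window, II 11167001 to 11168000, held 16.66 RPKM at F3, 4.56 RPKM at F5 and 2.37 RPKM in the set-32(red11) strain at F5 of the met-2 set-25 worms, against 195.45 to 321.18 RPKM in the 6 wild type for both. The groups did not overlap, and the change was -5.39 (SE 0.33, adjusted p = 5.79e-08), the largest of the 11. With no repair, 1 of 4 met-2 set-25 libraries was low there, at 3.15 RPKM, that with set-32(red11) and hrde-1(tm1200). The other tm1200 library of this genotype had 232.16 RPKM and the never-mutated ones had 219.98 and 183.33 RPKM, against 178.39 to 332.61 RPKM in the 6 wild type for both. The window was thus low, though not at 0, in every repaired met-2 set-25 library and in 1 unrepaired one.

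The gene ttr-6 (X 6596425 to 6597121, minus strand, WBcel235) encodes a transthyretin-like protein, of a large nematode family of mostly secreted proteins. Its window X 6596001 to 6597000 had 0 RPKM in each of the 3 repaired met-2 set-25 libraries, against 15.56 to 28.05 RPKM in the 6 wild type for both (change -4.40, SE 0.41, adjusted p = 1.89e-05). It was also at 0 in the pair of met-2 set-25 libraries with tm1200, against 14.01 to 25.96 RPKM in the 3 tm1200 libraries wild type for both. The 2 met-2 set-25 libraries never mutated at hrde-1 had 32.25 and 40.18 RPKM, against 21.91 to 32.97 RPKM in their 3 counterparts wild type for both. The zeros lay in met-2 set-25 libraries with a present or past hrde-1 mutation, and not in the never-mutated ones. Descent and genotype cannot be told apart with 1 library for each combination.

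At semo-1, the gene of a methanethiol oxidase, the top window IV 14056001 to 14057000 had 0, 0.46 and 1.19 RPKM in met-2 set-25 worms, against 5.83 to 15 RPKM in those wild type for both (change -2.90, SE 0.48, adjusted p = 0.0353). The groups did not overlap. Values there are not whole multiples of 1 read, as happens where reads are divided between copies of a sequence. With no repair, met-2 set-25 libraries had 7.09 to 16.95 RPKM, within the 3.27 to 16.99 RPKM of the 6 others.

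C55C3.3 (IV 5685287 to 5688273, plus strand, WBcel235), an uncharacterized protein-coding gene, was higher. Its window IV 5686001 to 5687000 had 11.9 and 18.23 RPKM in set-32(+) met-2 set-25 worms and 11.87 RPKM in the set-32(red11) ones, against 0 to 1.75 RPKM in the 6 wild type for both, with 3 of the 6 at 0. The change was 3.48 (SE 0.545, adjusted p = 0.0189). With no repair, met-2 set-25 libraries had 10.05 to 20.48 RPKM, against 0 to 2.18 RPKM, so that none of the 7 met-2 set-25 libraries overlapped any library wild type for both.

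The gene dod-23, named as one that acts downstream of the insulin-signalling transcription factor DAF-16, had 142.82, 109.36 and 84.31 RPKM in met-2 set-25 worms at II 8398001 to 8399000, against 21.92 to 48.61 RPKM in the others (change 1.71, SE 0.26, adjusted p = 0.0161). With no repair the groups overlapped there, at 69.32 to 149.42 RPKM in met-2 set-25 worms and 26.26 to 121.86 RPKM in the others. The calls at C55C3.3, dod-23 and semo-1 were each lost without any single set-32(+) library: met-2 set-25 F3 or F5, or wild type for both F4 or F5 (adjusted p of 0.0653 to 0.283). semo-1 was also lost without set-32(ok1457) F8, set-32(red11) F4 or set-32(red11) F5 (adjusted p of 0.0915 to 0.163). All 3 were lost as well with reads thinned to 1 depth (adjusted p of 0.888 to 0.926), with no filter on low windows (0.235 to 0.297) and with eBayes without a trend (0.0528 to 0.32). K07C10.3 kept its call under every alternative run for the 9 libraries, and set-25, met-2 and ttr-6 under every one but the fit of F5 libraries alone.

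**Figure D1:**
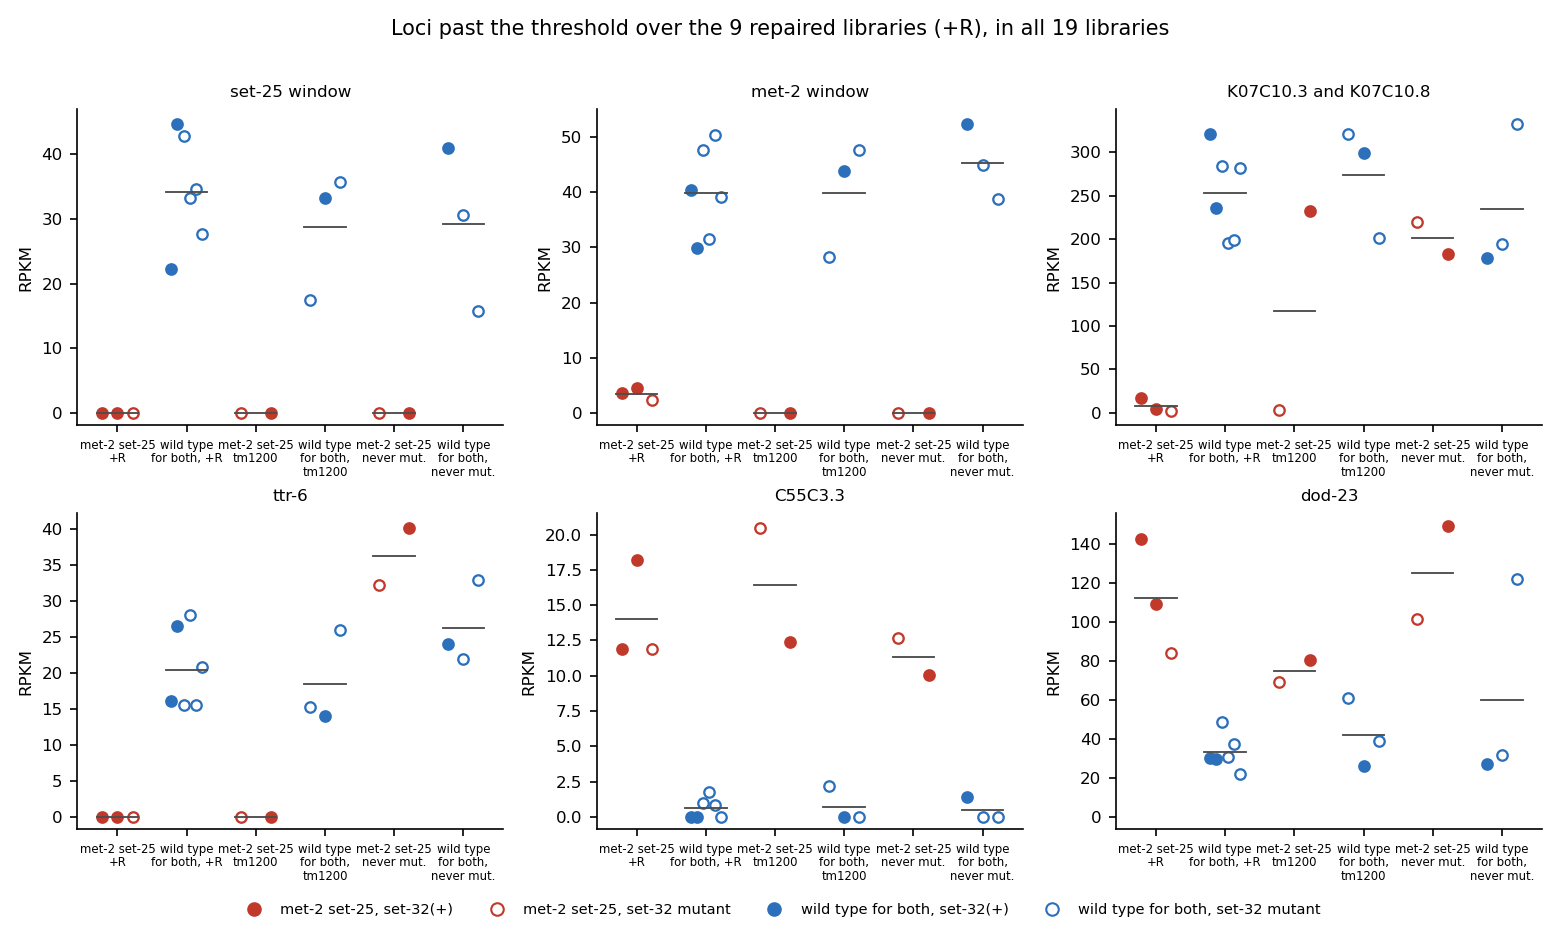
RPKM in 1 window per panel, 1 point per library for 19 libraries, with a line at each group's mean. Filled points are set-32(+) and open points set-32 mutant libraries, red for met-2 set-25 and blue for wild type for both; the K07C10.3 window is low in the 3 repaired met-2 set-25 libraries and in 1 tm1200 library, at 3.15 RPKM, and ttr-6 is at 0 in repaired and tm1200 met-2 set-25 libraries but not in never-mutated ones.

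The windows next in order of p did not pass over the 9 libraries. Of those higher, mab-20, the gene of a semaphorin, had 8.33, 9.11 and 9.5 RPKM in met-2 set-25 worms at I 1646001 to 1647000, against 0 to 4.86 RPKM in the others (change 2.78, adjusted p = 0.301). C18D4.6, an uncharacterized gene, had 47.01, 53.32 and 50.46 RPKM, against 4.97 to 52.5 RPKM (change 1.92, adjusted p = 0.205), with the lowest values in the pair of set-32(+) libraries wild type for both. Among set-32(+) libraries alone, the comparison described further on, C18D4.6 did pass (change 2.98, adjusted p = 0.00242). H05C05.2, F28F8.7, Y55F3AM.11, a second window of C55C3.3 and the collagen gene col-95 had changes of 1.52 to 2.87 with adjusted p of 0.114 to 0.353. Of those lower, the collagen genes col-71 and col-38 had changes of -3.29 (adjusted p = 0.0714) and -3.12 (adjusted p = 0.191). pnc-1, the gene of a nicotinamidase, and elo-6, that of a fatty acid elongase, had -2.15 (adjusted p = 0.166) and -1.59 (adjusted p = 0.158).

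A stretch of 16 windows with no annotated gene and divided reads, I 10204001 to 10220000, held 5 of those higher. Its mean level was 3.16 and 7.67 RPKM in set-32(+) met-2 set-25 worms and 3.62 RPKM in the set-32(red11) ones, against 0.068 to 0.381 RPKM in the 6 wild type for both. The groups did not overlap. None of the 16 windows was called after repair by limma (smallest adjusted p = 0.301), although 16 of 16 had an unadjusted p under 0.05, with changes of 1.49 to 2.38. Of all 41323 windows tested, 1443 were higher at such a p. The stretch was found through these values, and it passed the filter of 1 RPKM through its levels in met-2 set-25 libraries. With divided reads, the 16 windows may repeat the same signal. With no repair, 14 of the 16 were called. There the stretch stood at 11.5 and 9.69 RPKM in met-2 set-25 worms never mutated at hrde-1 and at 4.1 and 7.77 RPKM in those with tm1200, against 0.081 to 0.364 RPKM in the 6 wild type for both. The never-mutated met-2 set-25 libraries were above the 3 repaired ones.

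Between set-32(+) libraries alone (2 met-2 set-25 against 2 wild type for both, with the spread estimated from all 9), 58 of 41323 windows were called (0.14%). Of these, 32 were higher in met-2 set-25 worms (0.0774%), in 25 regions, and 26 lower (0.0629%), in 17 regions. So few libraries fail to overlap at 35.9% of all windows tested. A limma fit of these 4 libraries alone called none (0), and the unadjusted p was under 0.05 at 2956 windows. Without the met-2 set-25 library of F5, 6 of the 58 were still called, which were 3 windows of C38D9.2 and those of K07C10.3, set-25 and C27D9.1. Without that of F3, 11 were, which added F15D4.5, ttr-6, elo-6 and 2 windows of plk-3. The other calls in set-32(+) worms given below were lost in both cases.

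C38D9.2 (V 17567150 to 17571742, plus strand, WBcel235), an uncharacterized gene and a target of nuclear RNAi, differed most. Its window V 17570001 to 17571000 had 109.5 RPKM at F3 and 108.45 RPKM at F5 in met-2 set-25 worms, and 0 RPKM at F4 and at F5 in those wild type for both. The change was 6.78 (SE 0.30, adjusted p = 2.28e-09). Next to it, V 17571001 to 17572000 had 73.79 and 76.56 RPKM in the mutants, and V 17569001 to 17570000, with divided reads, had 48.8 and 35.54 RPKM. Both were at 0 in the libraries wild type for both.

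These levels at V 17570001 lay within those of repaired set-32 mutants, which were 81.93 RPKM with met-2 set-25 and 86.77 to 130.98 RPKM in the 4 libraries wild type for both. They were above tm1200 worms, with or without met-2 set-25 (74.04 and 74.29 RPKM with, 32.7 to 77.89 RPKM without). In worms never mutated at hrde-1, the window had 31.1 RPKM with met-2 set-25 and set-32(ok1457) and 0 RPKM with met-2 set-25 alone, against 1.1 to 2.87 RPKM in the 3 wild type for both. Among set-32(+) met-2 set-25 worms, this window was thus at 0 RPKM in the 1 library never mutated at hrde-1 and high in those repaired. As a mean over the windows of C38D9.2, that never-mutated library had 1.76 RPKM, against 0.33 to 1.13 RPKM in the 3 wild type for both. The call at V 17570001 held under every alternative except the 4 libraries alone (adjusted p = 0.216).

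F15D4.5 (II 13245376 to 13247774, plus strand, WBcel235), another target, stood at an intermediate level. Its window II 13246001 to 13247000 had 19.04 and 21.87 RPKM in met-2 set-25 worms, against 0 and 1.66 RPKM in those wild type for both (change 3.71, SE 0.41, adjusted p = 0.000462). Repaired set-32 mutants stood higher, at 67.68 RPKM with met-2 set-25 and 70.12 to 104.53 RPKM without. Here the never-mutated met-2 set-25 libraries, at 21.88 and 28.88 RPKM, had about as much as the repaired set-32(+) ones, against 0 to 5.73 RPKM in never-mutated worms wild type for both. The call was lost without the met-2 set-25 library of F5 (adjusted p = 0.0746), after thinning all libraries to 1 depth (adjusted p = 0.275), with a pseudocount of 0.1 RPKM (adjusted p = 0.0608) and with eBayes without a trend (adjusted p = 0.0693).

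**Figure D2:**
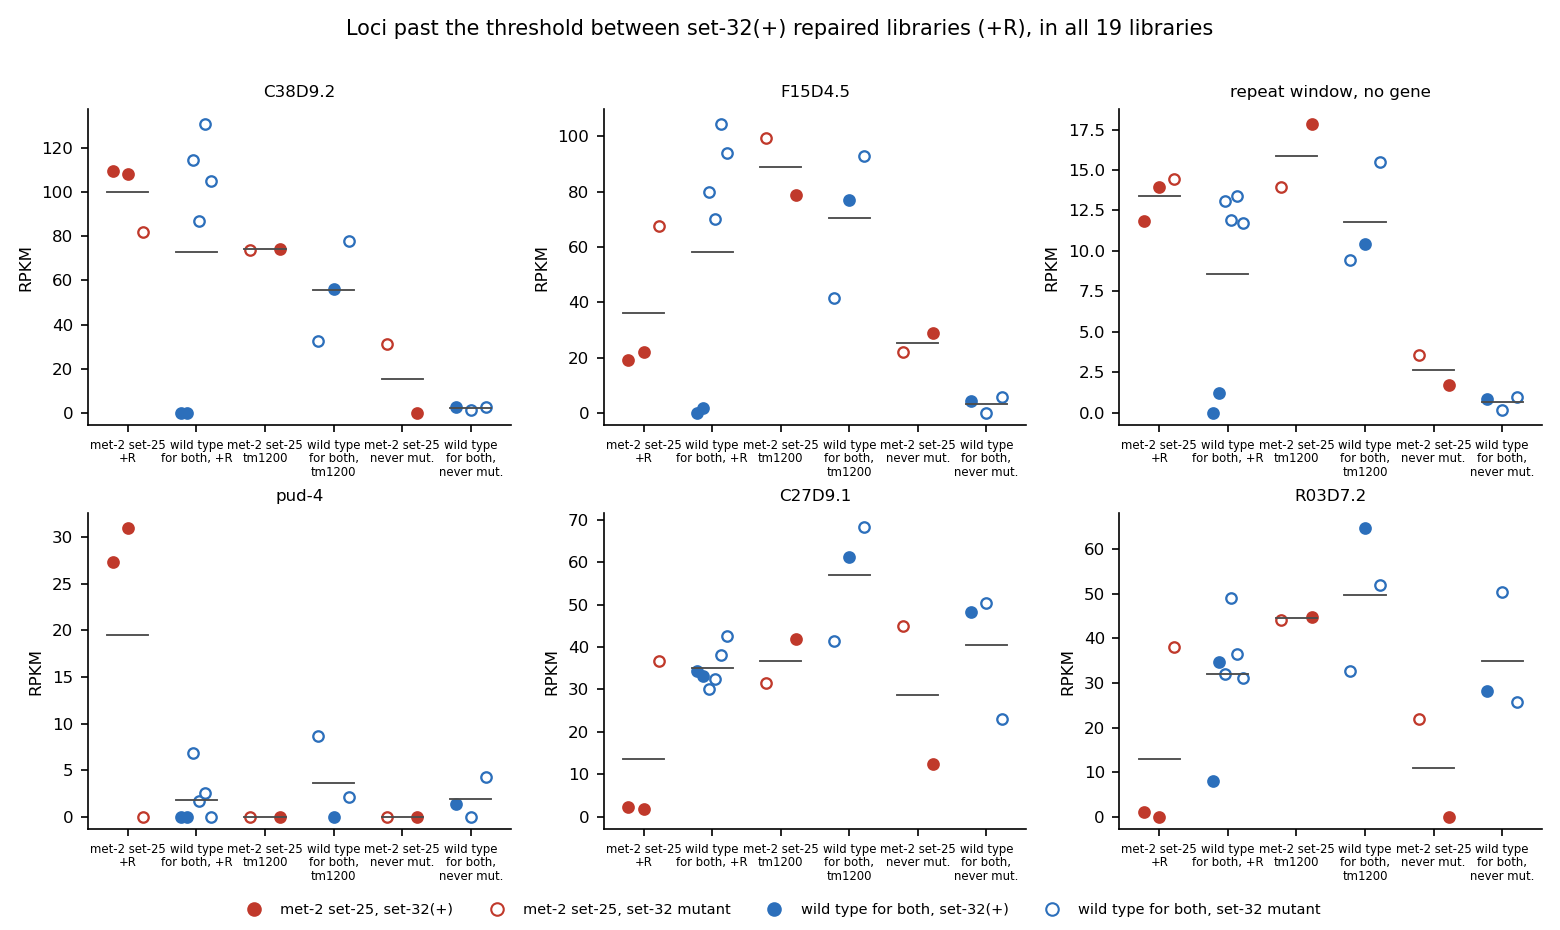
RPKM in 1 window per panel, 1 point per library for 19 libraries, with a line at each group's mean. Filled points are set-32(+) and open points set-32 mutant libraries, red for met-2 set-25 and blue for wild type for both; at C38D9.2 the 2 filled red points of repaired worms, 109.5 and 108.45 RPKM, lie among the open points and the 2 filled blue points lie at 0.

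As a stand-in for HRDE-1 targets, windows higher in tm1200 were taken. Higher RNA in tm1200 does not show that HRDE-1 acts at a window directly. These windows come from the 10 libraries with no repair, which do not enter this comparison. There 153 windows (0.37% of those tested) were higher in tm1200, in 70 regions. They held 16 of the 32 windows higher in set-32(+) met-2 set-25 worms after repair, which is 50% of the 32 and 10.5% of the 153. Of the 16, 6 lay in C38D9 or F15D4 genes and 11 had divided reads. The 153 windows summed to 910.2 and 815.4 RPKM in set-32(+) met-2 set-25 worms, against 368.7 and 324.3 RPKM in set-32(+) worms wild type for both. In set-32 mutants they summed to 2009.1 RPKM with met-2 set-25, against 1934.1 to 2428.7 RPKM without. The median change of the 153 was 0.39 in set-32(+) worms, against 0.09 over all windows. Without the C38D9 and F15D4 genes it was 0.33, over 145 windows. The sums in set-32(+) worms lean on the C38D9 region. Its 4 windows averaged 59.9 RPKM with met-2 set-25, against 0.208 RPKM in worms wild type for both. The mean log2(RPKM + 1) of the 153 was 1.632 against 0.941 in set-32(+) worms, and 1.485 against 0.973 without these genes.

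Most of the 70 regions raised in tm1200 were low after repair in set-32(+) worms of either kind. Counting any difference, 48 of the 70 had a higher mean with met-2 set-25. The region of scrm-4, for example, had a mean of 3.52 RPKM, against 0.415 RPKM, with no window called. At F07B7.1 and F07B7.2, V 8868001 to 8874000 averaged 3.69 and 1.25 RPKM in met-2 set-25 worms, against 1.82 and 2.48 RPKM in those wild type for both, while tm1200 worms wild type for both had 25.3 to 67.99 RPKM. The region of eri-6, which encodes a helicase of the RNA interference pathway, and sosi-1 had 1.19 and 1.14 RPKM, against 3.03 and 1.24 RPKM. The region of ife-5, the gene of an eIF4E-family cap-binding protein, had 0 and 2.89 RPKM, against 2.02 and 0.83 RPKM. The groups overlapped at the F07B7 and ife-5 regions, and at eri-6 and sosi-1 both met-2 set-25 libraries were slightly below both others.

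In the repaired set-32 mutants the same regions were high on both sides, for example 46.19 RPKM with met-2 set-25 and 48.99 to 56.1 RPKM without at F07B7.1 and F07B7.2. At the top windows of the 70 regions, both set-32(+) met-2 set-25 libraries lay above both others in 25 (35.7%, against 20.9% of all windows tested) and below both in 10 (14.3%, against 15% of all). In 11 regions a window was called higher. In 15 (21.4%) the top window differed by at least 2 without overlap, against 2.09% of all windows.

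Of those 11 regions, 6 have top windows with nearly equal values. The windows, chosen after these values were seen, start at II 14688001, V 766001 (at str-238), IV 508001 (at pig-1), IV 702001 (at cutl-26), II 1076001 and II 2267001, overlap no coding exon and have divided reads. They ran from 8.73 to 11.86 RPKM at F3 and 10.82 to 13.95 RPKM at F5 in met-2 set-25 worms, against 0 in each at F4 and 0.75 to 1.22 RPKM at F5 in worms wild type for both. In repaired set-32 mutants they stood at 10.7 to 14.43 RPKM with met-2 set-25 and 7.81 to 13.4 RPKM without. Changes in set-32(+) worms were 3.02 to 3.22, with adjusted p of 0.02 to 0.0421. Their reads may be shared, and the counts of windows and regions given here take each of them separately. V 3325001 had a like pattern, with 7.68 and 10.15 RPKM, against 0 and 0.75 RPKM, and did not pass (adjusted p = 0.0549).

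Another region raised in tm1200 with no gene named, V 17634001 to 17635000, had 16.36 and 13.14 RPKM in met-2 set-25 worms, against 0.67 and 1.66 RPKM (change 2.89, adjusted p = 0.0357). I 13931001, fbxa-192, bath-13, the noncoding WBGene00305980 and F40D4.13 had changes of 2.01 to 2.41 and did not pass, with adjusted p of 0.119 to 0.724. F55B11.6 went the other way, with 4.76 and 0 RPKM in met-2 set-25 worms, against 12.12 and 9.94 RPKM (change -2.32, adjusted p = 0.282).

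**Figure D3:**
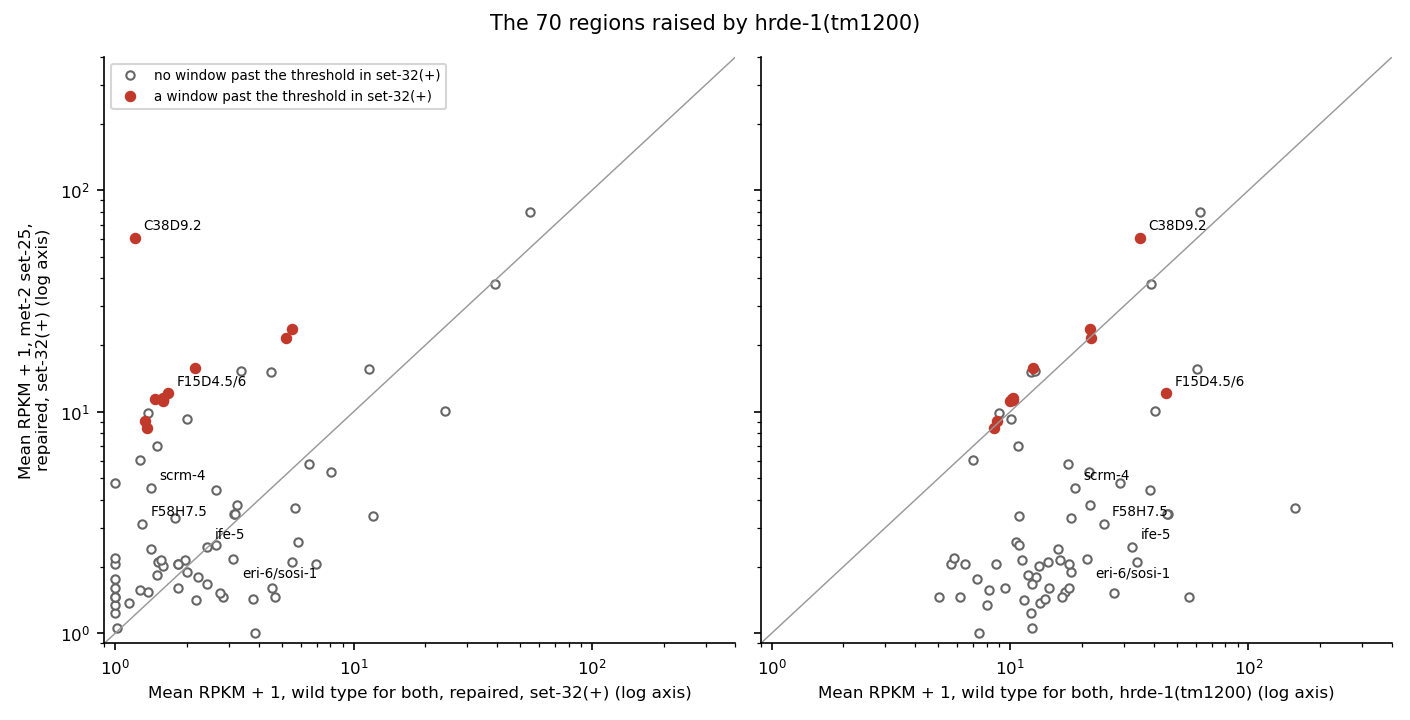
Each point is 1 of the 70 regions raised by hrde-1(tm1200), with the mean RPKM + 1 of repaired set-32(+) met-2 set-25 worms on the vertical axis against that of repaired set-32(+) worms wild type for both (left) or of tm1200 worms wild type for both (right), on log axes with a line of equal values. The 11 regions with a called window, in red, lie above the line on the left, and on the right 58 of 70 regions lie below it and C38D9.2 above.

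Other higher windows in set-32(+) met-2 set-25 worms were not among the 153 of tm1200. pud-4 belongs to a gene family first described by proteins more abundant in daf-2 insulin receptor mutants. At V 2327001 to 2328000 it had 27.37 and 30.99 RPKM in met-2 set-25 worms, and 0 RPKM at F4 and F5 in those wild type for both (change 4.91, SE 0.83, adjusted p = 0.024). It was also at 0 in the met-2 set-25 library of set-32(red11) worms and in the 4 met-2 set-25 libraries with no repair, so the high values were those of F3 and F5 alone. Nearby, V 2321001 to 2322000 had 23.21 and 18.23 RPKM, against 0 in both others (change 4.43, adjusted p = 0.02). The pseudogene WBGene00021886 had 18.49 and 12.32 RPKM at IV 2908001 to 2909000, against 0 and 0.48 RPKM (change 3.73, adjusted p = 0.024), with divided reads. Other windows of this pseudogene are among the 153, and 2 of the 11 regions with a called window lie in it.

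Several other calls were at low levels. spp-8, the gene of a saposin-like protein, and sma-1, that of a beta-H spectrin, each had 8.33 and 11.85 RPKM in met-2 set-25 worms, and 0 RPKM in both libraries wild type for both (change 3.45 for each, adjusted p = 0.0421 and 0.0497). mus-101, a gene of DNA replication and repair, had a change of 3.26 (adjusted p = 0.0333), with at least 13.09 RPKM in met-2 set-25 worms and at most 1.66 RPKM in the pair wild type for both. atm-1, the gene of a DNA damage kinase, had 11.9 and 16.25 RPKM, against 2.02 and 0 RPKM (change 3.10, adjusted p = 0.0421). At mus-101 and atm-1, the 3 never-mutated libraries wild type for both had 3.58 to 17.53 RPKM, and the low values after repair were those of the 2 shallowest repaired libraries. With all libraries thinned to 1 depth, 5 windows were called in place of 58, which were 3 of C38D9.2 and those of K07C10.3 and set-25. The part of depth in the other calls was not tested further. Without wild type for both F5, 265 were called, and 34 without F4. Without set-32(ok1457) F8, set-32(red11) F4 or set-32(red11) F5 of the worms wild type for both, 18, 16 and 18 were called.

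Of the lower windows, K07C10.3, set-25, ttr-6, met-2 and semo-1 are described above. C27D9.1 (II 4753413 to 4755603, plus strand, WBcel235), an uncharacterized gene, had 2.38 and 1.82 RPKM in met-2 set-25 worms at II 4754001 to 4755000, against 34.34 and 33.12 RPKM in those wild type for both (change -3.49, SE 0.35, adjusted p = 0.000131). With thinned reads this did not pass (adjusted p = 0.239). R03D7.2 had 1.19 and 0 RPKM, against 8.08 and 34.78 RPKM (change -3.61, adjusted p = 0.0154). In the met-2 set-25 library of set-32(red11) worms, C27D9.1 was at 36.81 RPKM and R03D7.2 at 38 RPKM, within the 30.14 to 42.68 RPKM and 31.15 to 49.08 RPKM of the 4 set-32 mutants wild type for both. Of the 5 libraries never mutated at hrde-1, met-2 set-25 with set-32(+) was lowest at each gene, with 12.56 RPKM at C27D9.1 and 0 RPKM at R03D7.2.

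ugt-63, the gene of a UDP-glucuronosyltransferase, had 0 and 0.91 RPKM, against 10.1 and 16.56 RPKM (change -3.34, adjusted p = 0.0347). A second window of semo-1, IV 14051001 to 14052000, had 3.57 and 0.91 RPKM, against 52.52 and 24.84 RPKM (change -3.65, adjusted p = 0.02). col-71 had 1.19 and 0.91 RPKM, against 111.1 and 16.56 RPKM (change -4.44, SE 0.70, adjusted p = 0.0192), with the high value at F4. Regions of lower rank were at eat-4, nhr-27, elo-6, plk-3, R11A8.1, tag-18 and a window with no gene, with changes of -2.72 to -1.76. The met-2 set-25 library of set-32(red11) worms was at 14.25 RPKM for ugt-63, within the 8.75 to 28.92 RPKM of the 4 set-32 mutants wild type for both, and at 1.19 RPKM for col-71, below their 5.77 to 9.64 RPKM.

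In set-32 mutants, 1 met-2 set-25 library stands against 4 wild type for both and is assumed to vary like them. There 5 windows were called (0.0121%), each lower, and 0 higher by limma, with 1932 at an unadjusted p under 0.05. This split turned round when lower windows were let in, with most calls then higher at a minimum mean of 0.2 RPKM and with no filter. In the 1 met-2 set-25 library 1 read was worth 1.19 RPKM, and how many reads such calls rest on was not tested. The 5 windows named here are those called at the minimum mean of 1 RPKM. They were K07C10.3 (change -6.14, adjusted p = 7.59e-06), set-25 (-5.14, adjusted p = 0.000736), ttr-6 (-4.35, adjusted p = 0.0189), met-2 (-3.66, adjusted p = 0.00189) and lpd-3. The lpd-3 window I 3572001 to 3573000 held 2.37 RPKM, against 18.46 to 32.1 RPKM (change -2.87, adjusted p = 0.037), while its set-32(+) libraries had 20.23 and 21.87 RPKM with met-2 set-25, against 16.16 and 23.19 RPKM. The lpd-3 call was lost without either set-32(+) met-2 set-25 library or any set-32 mutant wild type for both (adjusted p of 0.0767 to 0.232), and the ttr-6 call without any of those 4 set-32 mutants (adjusted p of 0.0767 to 0.111).

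The difference between set-32 states was tested as an interaction, which called 5 windows (0.0121%), 1 with a positive and 4 with a negative difference. With a minimum mean of 0.2 RPKM or no filter, many more passed and most had a positive difference. Those calls use the same 1 met-2 set-25 library of set-32 mutants, in which 1 read was worth 1.19 RPKM. In C38D9.2, the change with met-2 set-25 in set-32 mutants minus that in set-32(+) worms was -7.18 at V 17570001 (SE 0.45, adjusted p = 6.19e-07), -6.70 at V 17571001 (adjusted p = 1.74e-06) and -5.44 at V 17569001 (adjusted p = 0.000287). At F15D4.5 it was -4.06 (SE 0.62, adjusted p = 0.0431). For both genes the set-32 mutants wild type for met-2 and set-25 were already high. C27D9.1 went the other way, with a change of 0.05 in set-32 mutants and -3.49 in set-32(+) worms, a difference of 3.54 (SE 0.53, adjusted p = 0.0395). The C27D9.1 call was lost without any 1 of the 8 libraries left out in turn (adjusted p of 0.0525 to 0.362). That of F15D4.5 was lost without either set-32(+) met-2 set-25 library or any set-32 mutant wild type for both (adjusted p of 0.0849 to 0.847), whereas C38D9.2 passed in each of these fits. The 6 repeat windows had differences of -3.03 to -2.71 and did not pass (adjusted p of 0.51 to 0.544), nor did pud-4 (-6.48, adjusted p = 0.208).

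**Figure D4:**
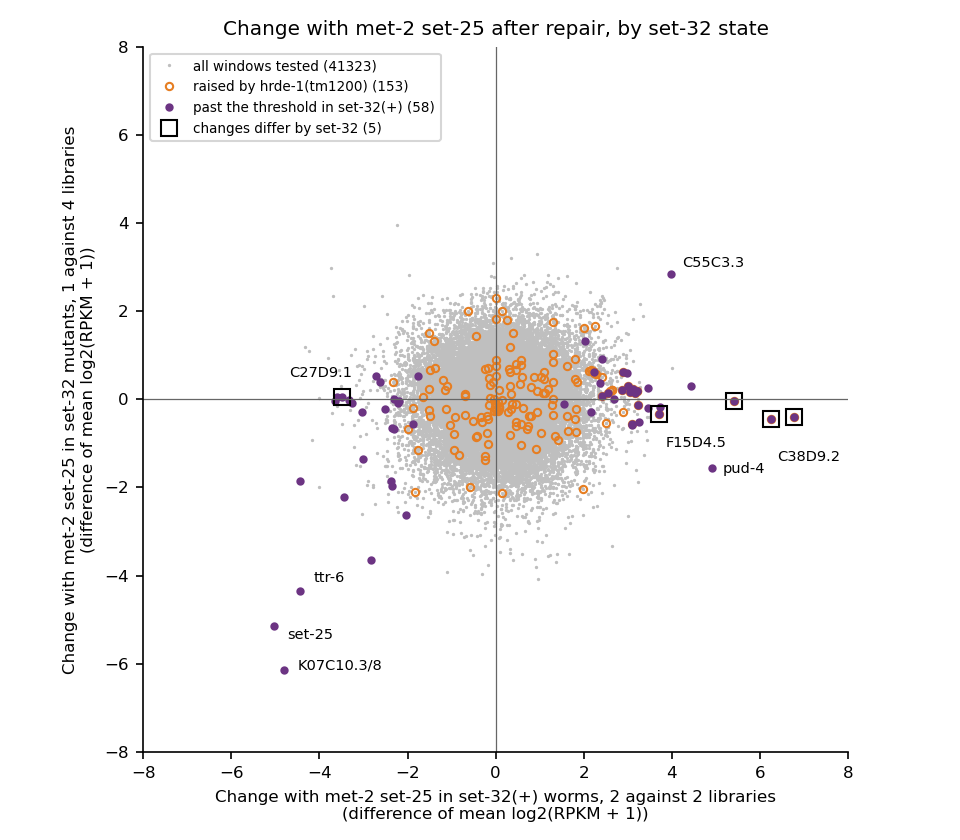
Each grey point is 1 of 41323 windows, with its change with met-2 set-25 in set-32(+) worms (horizontal, 2 against 2 libraries) and in set-32 mutants (vertical, 1 against 4), both as differences of mean log2(RPKM + 1); orange rings mark the 153 windows raised by tm1200, purple points the 58 called in set-32(+) worms and squares the 5 with a called interaction. K07C10.3, set-25 and ttr-6 are low on both axes, and C38D9.2 and F15D4.5 are high on the horizontal axis and near 0 on the vertical.

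With no repair, 29 windows were called between met-2 set-25 and wild type for both (0.0702%), 24 higher (0.0581%) and 5 lower (0.0121%). Of the 29, 5 were also called over the 9 repaired libraries, which is 17.2% of the 29 and 45.5% of the 11, and the comparisons share no library. Of these 5, 4 lie in the mutated genes met-2 and set-25 themselves, as do all 5 lower ones with no repair, and the other is C55C3.3. Of the 24 higher ones, 21 had a positive change after repair and 19 an unadjusted p under 0.05, with a median change of 2.11, against 0.05 over all windows. Of all 41323 windows, 1443 were higher after repair at such a p. Of the 24, 14 lie in the stretch of divided reads on chromosome I, so these counts and the median largely repeat 1 locus. The difference between the effects of met-2 set-25 with and without repair, tested by limma over 19 libraries, called none (0, or 0.0%), and the unadjusted p was under 0.05 at 2515 of 41323. The smallest p were at T04F3.1 (difference -2.50, adjusted p = 0.23), lev-11 (-1.75, adjusted p = 0.266), semo-1 (-3.06, adjusted p = 0.266), met-2 as given above and F42A8.1 (-3.21, adjusted p = 0.474). lev-11 encodes tropomyosin of muscle, and its window I 14630001 to 14631000 had 57.13, 60.15 and 51.06 RPKM in repaired met-2 set-25 worms, against 75.84 to 139.12 RPKM in the repaired worms wild type for both. Without the repaired met-2 set-25 library of set-32(red11) worms, 19 windows were called for this difference, and 1 without set-32(ok1457) F5.

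Gene values, means over the windows of each of 11264 genes, gave few calls. Over 9 libraries 3 genes passed (0.0266%), C55C3.3 higher (change 2.85, adjusted p = 0.0352), and ttr-6 (-4.40, adjusted p = 0.000289) and met-2 (-2.20, adjusted p = 0.00212) lower. In set-32(+) worms 5 passed (0.0444%), C38D9.2 and F15D4.5 higher, and C27D9.1, ttr-6 and met-2 lower. C38D9.2 and F15D4.5 are on a list of 11 nuclear RNAi targets, chosen in part for their levels in these libraries and so no independent evidence of a direction. Of the 11, 0 were called over the 9 libraries. R03H10.6, also on the list, had 4.76, 6.83 and 2.96 RPKM in met-2 set-25 worms, against 0 to 0.88 RPKM in the others (change 2.13, adjusted p = 0.346), without overlap but not passing.

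Of 16 genes of H3K9 methylation and HP1 proteins, met-2 was the 1 called, with a median change of -0.01, against 0.05 over all genes. Among 8 nuclear RNAi factors (median -0.02), 14 other germline chromatin genes (0.12), 35 genes of small RNA pathways (0.04) and 13 genes of P granules (0.01), limma called 0. The same held for 15 heat shock genes (0.14) and 16 immune genes (0.60). Of the immune genes 13 had a positive change, against 6374 of all 11264 genes. Their sums overlapped, at 297.6 to 486.5 RPKM in met-2 set-25 worms and 264.9 to 545.9 RPKM in the others. Among them cnc-4, the gene of an antimicrobial caenacin, had 22.61, 11.85 and 4.75 RPKM in met-2 set-25 worms. The others had 0 to 4.86 RPKM (change 2.19, limma adjusted p = 0.728).

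Markers of tissues and stages differed between libraries without a call. Of all 11264 genes tested, 6374 had a positive and 4872 a negative change. In bulk RNA, fewer cells of a type and less RNA per cell cannot be told apart. Of 35 sperm genes, 34 had a negative change, with a median of -1.005. They summed to 154.5, 177.6 and 133.6 RPKM in met-2 set-25 worms, against a lowest value of 82.8, a median of 252.1 and a highest value of 1292.7 RPKM in the others. The groups overlapped, and the highest values were those of set-32(ok1457) F8 (1292.7 RPKM) and of hrde-1(+R) F4 (819.3 RPKM). Of 19 muscle genes, 19 had a negative change (median -0.37), with summed levels of 817.2 to 1089.0 RPKM in met-2 set-25 worms and 823.7 to 1876.6 RPKM in the others.

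Of 30 cuticle collagens, 24 had a negative change (median -1.07), with 1195.9 to 2282.6 RPKM summed in met-2 set-25 worms, against 862.5 to 4413.1 RPKM in the others, highest in hrde-1(+R) F4. Of 49 histone genes, many of them near-identical copies whose reads cannot be assigned with certainty, 48 had a positive change (median 0.38). They summed to 15761.1 to 18262.0 RPKM in met-2 set-25 worms, against 9877.3 to 15639.7 RPKM. The groups did not overlap, by a narrow margin of 15761.1 against 15639.7 RPKM. With near-identical copies, the 48 may not be separate results. Medians of genes of oocytes and eggshell (0.08), vitellogenins (-0.01), intestine (-0.07), neurons (0.11) and the early embryo (0.35, 4 genes) were smaller. Each sperm, muscle and collagen gene tested was above 0 in at least 1 library of either side. With no repair the medians had the other sign for sperm genes (0.79), muscle genes (0.23) and collagens (0.34), and the same sign for histone genes (0.14). The part of these marker differences in the calls was not tested.

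**Figure D5:**
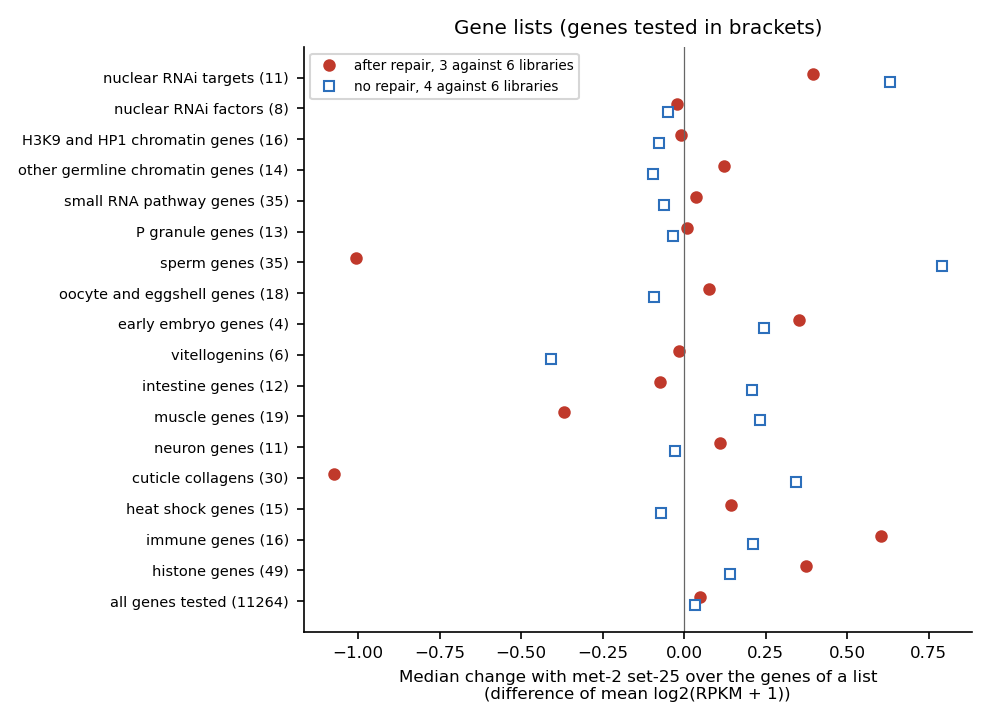
Median change with met-2 set-25 over the tested genes of each list, as differences of mean log2(RPKM + 1), after repair (red, 3 against 6 libraries) and with no repair (blue squares, 4 against 6). Sperm genes and cuticle collagens lie at -1.005 and -1.07 after repair and at 0.79 and 0.34 with no repair, and all genes lie at 0.05 and 0.04.

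By class of window, the mark GRTS in the authors' table covered 142 tested windows, of which 4 were higher in set-32(+) met-2 set-25 worms and 0 over the 9 libraries. The mark GRH covered 175, with 2 higher and 1 lower in set-32(+) worms. Windows with a pseudogene held 4 higher and 0 lower of 875, windows with no annotated gene 5 higher and 1 lower of 2866, and the X chromosome 0 higher and 3 lower of 5595. Windows of divided reads held 14 higher and 3 lower of 4181, against 32 and 26 of 41323 in all.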

How the data were processed

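The authors deposited a table of RPKM values for 100257 windows of 1 kb. Per the submitters' processing notes, Bowtie 0.12.7 was used. Not given in the sources used here are the build, the treatment of multiply matching reads and the strand setting. From the values, 81.6% to 84.5% of positive values in the 9 repaired libraries were whole multiples of 1 read within 0.0051 RPKM, so no count test was run. A total of 24 columns of other samples were not used, and 4 F20 samples were not analysed here.

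Windows took names of WBcel235 genes that overlap by at least 250 bp. Of 201 segments of 500 windows, 198 matched exon density within 300 bp, and windows of the other 3, on V from 19500001, are not named. Window positions are the table's, 1-based.

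Tests used limma 3.58.1 in R 4.3.3 (lmFit, eBayes with trend) on log2(RPKM + 1) with Benjamini-Hochberg adjustment. The fits were also run on simulated reads, with changes placed only in windows of higher mean level. Recovery of changes in low windows was not tested. The main fit had set-32 as covariate, and cell means of met-2 set-25 by set-32 gave the set-32(+), set-32 mutant and interaction contrasts. Gene values averaged windows with at least 500 bp of a gene. Called windows of 1 direction at most 1 kb apart formed regions. Named are the 15 highest-ranked higher and 10 lower regions, filled with windows of smallest p, the 4 mutated loci, tm1200 regions differing by at least 2 without overlap, the 5 smallest p of each interaction, and called list genes. Members and lists were chosen with earlier results of these data known. Alternatives are given in the closing section.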

Additional observations from a re-analysis of the deposited data

Results flagged for a closer look

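In 5 windows the change with met-2 set-25 after repair differed between set-32 mutants and set-32(+) worms by a test of the interaction (limma over the 9 repaired libraries). In C38D9.2 the difference was -5.44 at V 17569001, -7.18 at V 17570001 and -6.70 at V 17571001 on the log2(RPKM + 1) scale. At F15D4.5 it was -4.06 and at C27D9.1 it was 3.54. Only 1 met-2 set-25 library stands on the set-32 mutant side, and it is assumed to vary like the others. None of 24 sets of values (7 called regions and 17 gene lists) had a library far from the other 5 among the 6 repaired libraries wild type for both.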

How the results depend on the processing

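No paired analysis was possible because the labels give no replicate numbers. Only at F5 are libraries of both sides matched in generation and set-32 state, in 2 pairs. Over 9 libraries, 11 windows were called. This count was 4 with eBayes without trend, 1 with F5 libraries alone, 6 unfiltered, 5 at a mean of at least 0.2 RPKM, 6 with thinned reads, 7 with a pseudocount of 0.1 RPKM, and 7 to 55 leaving out 1 library, 55 without the met-2 set-25 library of set-32(red11) worms. All 7 top windows kept their sign in both F5 pairs matched on set-32. This outcome was fixed in advance, since the pairs are among the 9 libraries and the groups do not overlap at these windows. In set-32(+) worms, 58 were called, and 0 with the 4 libraries alone, 6 without trend, 276 with a minimum of 0.2 RPKM, 424 with no filter, 19 with a pseudocount of 0.1 RPKM, 5 with thinned reads, and 6 to 265 leaving out 1 library, 265 without hrde-1(+R) F5 and 6 without the met-2 set-25 library of F5. The 16 tm1200 windows among the higher ones were 0, 3, 3, 6, 3 and 5 with the 4 libraries alone, without trend, with pseudocounts of 0.1 and 5 RPKM, with thinned reads and without divided reads, and 3 to 19 leaving out 1 library. For set-32 mutants, 5 were called, and 32 with a pseudocount of 0.1 RPKM, 1159 with no filter, and 3 to 7 leaving out 1 library. The interaction with set-32 called 5, and 8 with a pseudocount of 0.1 RPKM, 1148 with no filter and 3 to 9 leaving out 1 library. The interaction with repair called 0, and 1 with a pseudocount of 0.1 RPKM and 0 to 19 leaving out 1 library, 19 without that of set-32(red11) met-2 set-25 worms. With a minimum of 0.2 RPKM, the last 3 comparisons called 338, 304 and 0, and with thinned reads 2, 3 and 0. Alternatives for set-32 mutants and for the tm1200 windows were chosen after seeing the data. The causes were not tested. Over 1303 alternative values for 60 named changes, 0 changed sign, 310 lost a call and 25 gained one. The alternatives reuse the same libraries, so the kept signs are no separate evidence. Median-ratio scaling moved the median change of all windows by 0.017 to 0.1. At 1 read worth up to 2.02 RPKM, levels of a few RPKM come from few reads, and a value of 0 does not show that a transcript is absent.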
